A study of Mus musculus with 6 samples.

Results

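Endothelial genes were followed at E12.5 (days after mating) in the mesonephroi of male mouse embryos, in 3 controls and 3 embryos labelled as knockout for Wnt9b. The set holds 38 genes chosen by name from the 20033 genes of the deposited table: 26 pan-endothelial, 5 arterial, 4 tip-cell and 3 lymphatic genes. All 38 had a row in the table, and all 38 passed the filter on low values. The mesonephros, the embryonic kidney with the Wolffian duct, was taken whole, so its vessels were measured together with duct, tubules, mesenchyme and blood. The controls carry the genotype label heterozygous, while wild type is the wording of the design text. The knockout is in the whole embryo. By their titles, the 6 libraries stand for 6 different mice. The p-values set the difference between the groups against the spread of the libraries within them. Litter and batch are not given, so a litter or batch difference between the groups could not be told apart from genotype. Wnt9b itself was at 24.9, 26.4 and 34.0 TPM (a share of transcripts, corrected for gene length and library size) in controls 1 to 3 and at 23.4, 19.2 and 19.0 TPM in knockouts 1 to 3. Every knockout lay below every control (limma adjusted p = 0.266; 0.0263 in the authors' deposited table). The labels do not say which part of the gene was deleted, and where its reads lie was not tested. At least 27930310 to 32401829 reads per library were assigned to genes.

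Endothelial cells line blood and lymphatic vessels. They are held together by VE-cadherin and other junction proteins, and their growth is steered by VEGF receptors, by the Tie receptors of the angiopoietins, and by Notch, apelin and BMP signals. Factors of the ETS and SOXF families keep the cell type, arteries use Notch and SOXF factors, and lymphatic vessels form under Prox1 and the VEGF-C receptor. At a sprout, tip cells lead and stalk cells follow. In male embryos of this age, endothelial cells of the mesonephros are known to move into the neighbouring gonad, where they help to build its artery.

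As a set, the endothelial genes were slightly lower in the knockouts. No member passed limma's test on log2(TPM + 1) over all genes at an adjusted p under 0.05, where 0.444% of the 17577 genes tested did (0.313% lower, 0.131% higher). The median log2 difference of knockout minus control was -0.18 over the 38 genes and -0.0075 over all genes tested, and 30 of the 38 lay below 0 (51.8% of all genes tested); the other 8 lay above it (48.2%). At an unadjusted p under 0.05, 12 members were lower (5.92% of all genes) and 1, Esm1, was higher (5.35% of all genes), together 11.3% of all genes. For 13 members every knockout value lay below every control value (8.49% of all genes), and for Esm1 every knockout value lay above (8.14% of all genes; 16.6% for both directions). Among the members, 6 have in the authors' deposited table an adjusted p under 0.05, all lower: Aplnr, Eng, Kdr, Adgrl4, Flt4 and Cdh5. Of the genes with an adjusted p there, 3.55% are under 0.05 (2.17% lower, 1.38% higher). Limma-voom on reads recovered from the TPM values called 2 members, Eng and Kdr, both lower (1.59% of all genes were called, 1.07% lower and 0.518% higher). The members were chosen with earlier results of these libraries known, so these shares describe the set and test nothing about it.

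**Figure D1:**
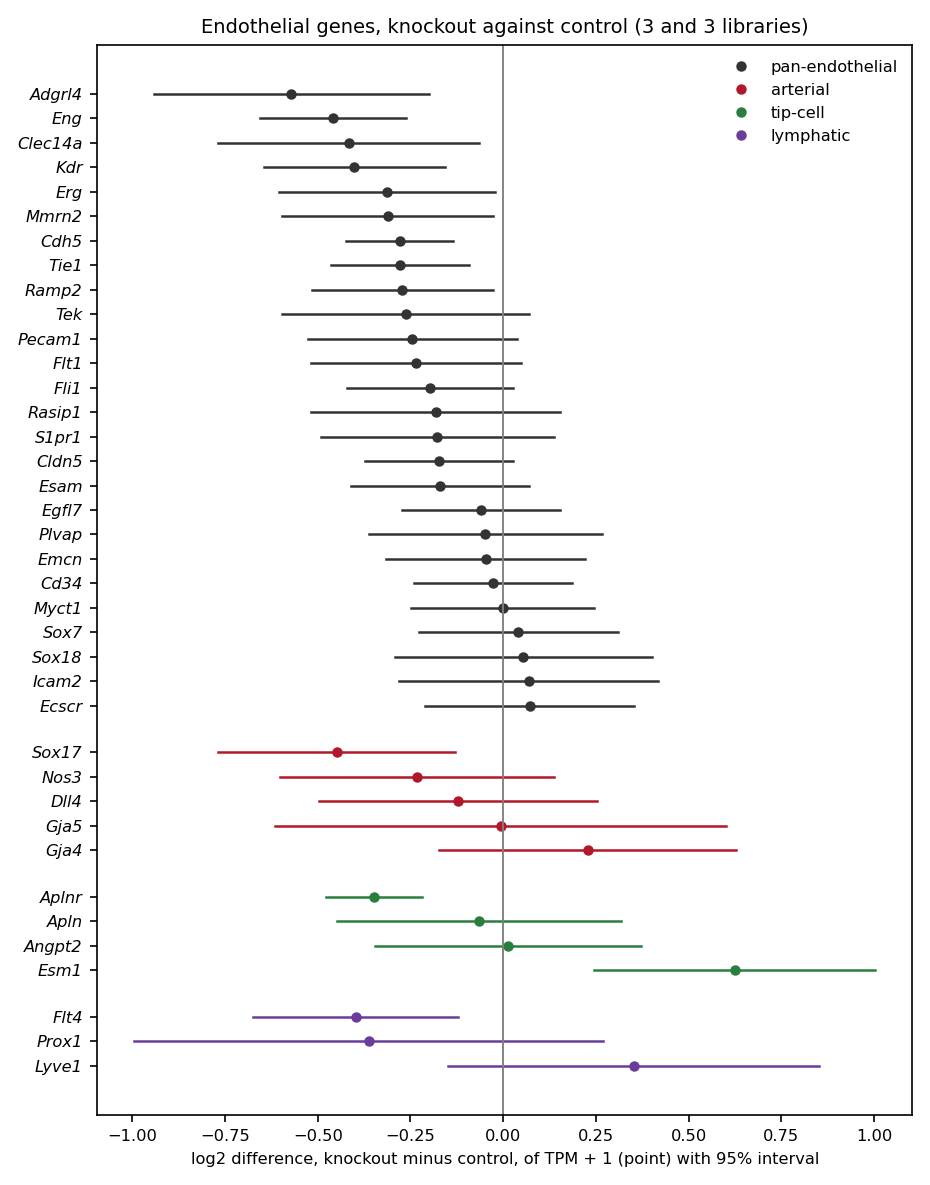
Log2 difference of knockout minus control on the log2(TPM + 1) scale for each of the 38 endothelial genes (points) with its 95% interval from limma (lines), coloured by subgroup, n = 3 libraries per group. Most points lie left of 0, from -0.57 for Adgrl4 to 0.62 for Esm1, and 13 intervals leave out 0 before any adjustment.

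The summed level of the 38 genes was 1315, 1232 and 1266 TPM in controls 1 to 3 and 1076, 1177 and 1099 TPM in knockouts 1 to 3. The groups did not overlap, and the difference of their means was -12.1%. Plvap, Cdh5, Aplnr, Eng, Kdr and Emcn had the highest levels in this sum. Control 1 held the highest value for 18 of the 38 genes and control 3 for 9; knockout 1 held the lowest for 16 and knockout 3 for 10. Per 1000 TPM of the 26 pan-endothelial genes, whose own sum was lower in each knockout, 5 members lay lower without overlap (Eng, Cdh5, Flt1, Sox17 and Aplnr), 6 lay higher (Esm1, Gja4, Egfl7, Myct1, Sox7 and Ecscr) and 27 overlapped, among them Kdr, Adgrl4, Flt4, Clec14a, Erg, Mmrn2, Tie1 and Ramp2. The share of all genes without overlap on this scale was not computed, so these counts have no background beside them. Because the divisor was lower in the knockouts, a gene nearly unchanged in TPM, such as Myct1 (-0.13%), lies higher on this scale. The 26 pan-endothelial genes add up to 1000 in every library here, so a lower share of some must be balanced by a higher share of others. Their split into lower and higher is thus partly fixed by the scale. In whole tissue, fewer endothelial cells and less of these transcripts per cell cannot be told apart.

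**Figure D2:**
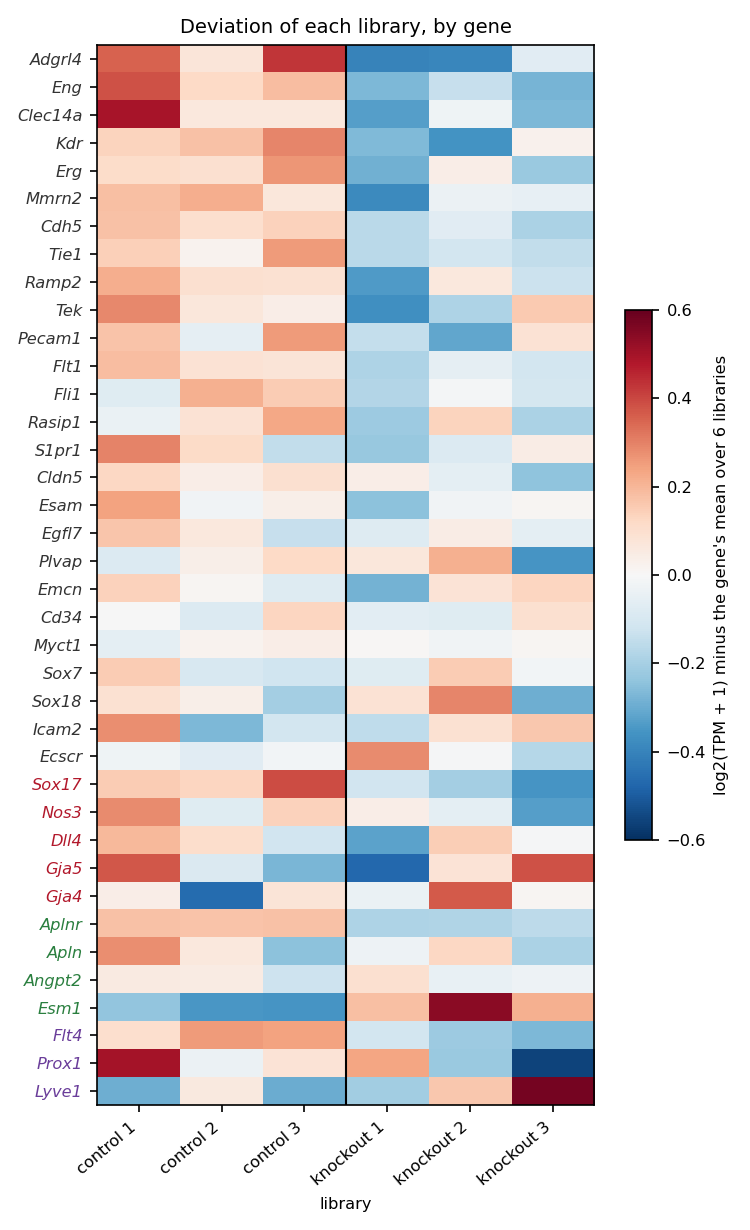
Deviation of log2(TPM + 1) of each library (columns) from the gene's mean over the 6 libraries, for the 38 endothelial genes (rows; label colour gives the subgroup). Controls are mostly red and knockouts mostly blue in the upper rows, whereas Esm1 runs the other way. Lyve1 does so except in control 2 and knockout 1, and Gja5, Plvap and Sox18 differ as much within a group as between groups.

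Promoter sequences are shown for 4 members. Eng, Kdr and Adgrl4 are lower in the authors' deposited table, and Esm1 lay higher without overlap but was not called. RefSeq windows (build GRCm38.p6, another build than the GRCm39 of the submitters' processing notes) matched 21 of the 38 members by symbol, with 26 windows. The 250 bases before each start are shown 5′ to 3′ on the gene's strand. Capitals mark the letters AGGAAG, a form of site that ETS factors such as Erg and Fli1 bind, or the reverse complement CTTCCT. Other forms of ETS sites were not searched.
Eng (GRCm38.p6, chr2:32646345-32646594, plus strand): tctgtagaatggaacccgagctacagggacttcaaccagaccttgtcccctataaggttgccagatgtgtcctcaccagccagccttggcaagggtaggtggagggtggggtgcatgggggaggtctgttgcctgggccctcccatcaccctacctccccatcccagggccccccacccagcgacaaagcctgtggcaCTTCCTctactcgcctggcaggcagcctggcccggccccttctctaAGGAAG
Adgrl4 (GRCm38.p6, chr3:151437632-151437881, plus strand): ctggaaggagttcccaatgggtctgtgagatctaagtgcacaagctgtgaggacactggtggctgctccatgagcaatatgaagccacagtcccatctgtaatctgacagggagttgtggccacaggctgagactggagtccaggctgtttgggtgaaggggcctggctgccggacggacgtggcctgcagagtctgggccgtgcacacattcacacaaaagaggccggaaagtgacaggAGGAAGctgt
Kdr (GRCm38.p6, chr5:75978456-75978705, minus strand): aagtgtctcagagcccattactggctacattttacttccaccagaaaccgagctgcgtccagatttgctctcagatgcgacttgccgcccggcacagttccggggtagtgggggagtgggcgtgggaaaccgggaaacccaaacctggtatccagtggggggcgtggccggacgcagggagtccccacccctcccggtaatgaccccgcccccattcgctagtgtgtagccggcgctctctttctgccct
Esm1 (GRCm38.p6, chr13:113209409-113209658, plus strand): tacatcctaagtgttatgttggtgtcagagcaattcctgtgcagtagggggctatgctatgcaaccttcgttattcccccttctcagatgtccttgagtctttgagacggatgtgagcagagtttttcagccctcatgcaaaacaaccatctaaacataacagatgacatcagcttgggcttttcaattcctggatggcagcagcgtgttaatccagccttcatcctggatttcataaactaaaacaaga
Eng held these letters at 2 places and Adgrl4 at 1, while Kdr and Esm1 held none. Flt4, also lower in the authors' deposited table, held none either, and Aplnr and Cdh5 had no entry. On both strands they occurred in 12 of the 26 member windows (46.2%) and in 29.5% of all 32851 windows of the same length. The letters AACAAT, bound by SOX factors, were found on either strand in 3 member windows (11.5%) and 9.42% of all windows. The letters AGATAA, bound by GATA factors, were found on either strand in 2 member windows (7.69%) and 9.99% of all windows. None of the 3 motifs contains another, and a match is only a description of the window.

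Junction and surface genes differed in how far they departed from the controls. Cdh5 (ENSMUSG00000031871), which encodes VE-cadherin, was at 110 (control 1), 104 (control 2) and 107 (control 3) TPM and at 86.6, 92.6 and 84.8 TPM in knockouts 1 to 3. All 3 knockouts lay below all controls (log2 difference -0.28, SE 0.063; limma adjusted p = 0.133; 0.0359 in the authors' deposited table). Clec14a, a C-type lectin of the endothelial surface, was at 20.5, 15.0 and 15.0 TPM in controls 1 to 3 and 11.1, 14.0 and 11.7 TPM in knockouts 1 to 3. Control 1 stood well above the other controls for Clec14a, and the log2 difference was -0.42 (SE 0.15; limma adjusted p = 0.356). Pecam1 (ENSMUSG00000020717), the adhesion receptor most often used to stain vessels, was at 45.6, 38.9 and 48.4 TPM in the controls and 36.5, 32.5 and 43.0 TPM in the knockouts. The Pecam1 groups overlapped, because knockout 3 exceeded control 2 (log2 difference -0.25, 95% interval -0.53 to 0.04; limma adjusted p = 0.521).

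The pan-endothelial surface genes below had log2 differences from -0.17 to 0.07, beside a median of -0.18 over the 38 members. A difference between surface genes was not tested. Emcn, a sialomucin of veins and capillaries, was at 75.1, 68.8 and 64.6 TPM in the controls and 55.9, 72.3 and 74.7 TPM in the knockouts, with only knockout 1 below the control range. Its log2 difference was -0.05 (95% interval -0.31 to 0.22). Cldn5, a claudin of endothelial tight junctions, was at 57.9, 54.5 and 56.9 TPM in the controls and 54.6, 51.0 and 44.7 TPM in the knockouts (log2 difference -0.17; limma adjusted p = 0.521). Among the rest, Esam, a tight junction adhesion molecule, and Plvap, which forms the diaphragms of fenestrae, had log2 differences of -0.17 and -0.05. The sialomucin gene Cd34 and the adhesion molecule gene Icam2 had differences of -0.03 and 0.07. Plvap ranged from 95.8 TPM in knockout 3 to 143 TPM in knockout 2, a wider spread than its 116 to 134 TPM in the controls. None of these 4 genes reached an unadjusted p under 0.05.

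**Figure D3:**
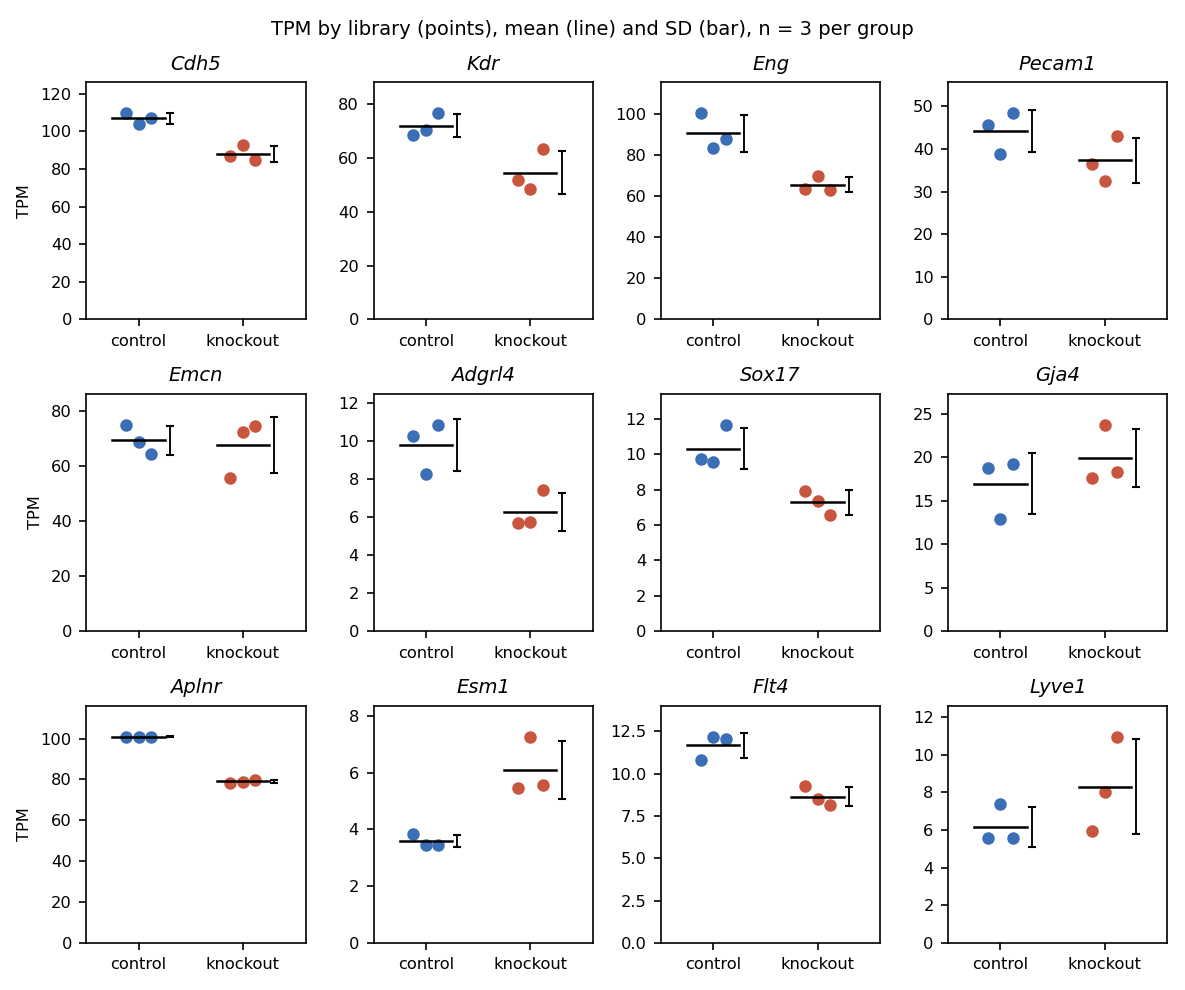
TPM of 12 endothelial genes in each library (points), with the group mean (line) and SD (bar), n = 3 per group; the axes start at 0 and differ between panels. Aplnr sits at 101 TPM in each control and between 78.4 and 80.0 TPM in the knockouts, Cdh5, Kdr, Eng, Adgrl4, Sox17 and Flt4 do not overlap between groups, and Esm1 is higher in every knockout.

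All 5 receptor tyrosine kinases lay below the controls in their means. Kdr (ENSMUSG00000062960), the main signalling receptor of VEGF-A, was at 68.7, 70.6 and 76.8 TPM in the controls and 51.8, 48.4 and 63.6 TPM in the knockouts. There was no overlap, although knockout 3 came close to control 1 (log2 difference -0.40, SE 0.11; limma adjusted p = 0.192; 0.00199 in the authors' deposited table). Without knockout 3 the difference was -0.51 (limma adjusted p = 0.0328), a setting in which 242 genes were called over the whole table, against 78 in the reported fit. Over 14 analysis settings the adjusted p of Kdr ran from 0.0328 to 0.498. The only other setting under 0.05 was limma-voom (0.0498). Flt4 (ENSMUSG00000020357), the receptor of VEGF-C, present on lymphatic and sprouting endothelium, was at 10.8, 12.2 and 12.0 TPM in the controls and 9.24, 8.49 and 8.15 TPM in the knockouts. It did not overlap either (log2 difference -0.40, SE 0.12; limma adjusted p = 0.251; 0.0146 in the authors' deposited table). Tie1, the partner of the angiopoietin receptor, was at 50.5, 46.3 and 54.6 TPM in the controls and 40.7, 42.3 and 41.2 TPM in the knockouts. The Tie1 knockouts lay close together and below every control (log2 difference -0.28, SE 0.081; limma adjusted p = 0.235). Tek, the angiopoietin receptor itself, was at 27.0, 23.1 and 22.6 TPM in the controls and 16.8, 19.2 and 24.6 TPM in the knockouts. Here knockout 3 lay inside the control range (log2 difference -0.26, 95% interval -0.60 to 0.07). Flt1, which binds VEGF-A with little signalling of its own, had a control mean of 9.08 ± 0.426 TPM (here and below, SD with n = 3) and a knockout mean of 7.57 ± 0.392 TPM, without overlap.

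Coreceptors and other receptors included the member with the smallest p. Aplnr (ENSMUSG00000044338), the apelin receptor of veins and sprouting vessels, was at 101 TPM in each of the 3 controls and at 78.4, 78.7 and 80.0 TPM in knockouts 1 to 3. Both groups were very tight, with SDs of 0.206 and 0.828 TPM, and lay far apart. The log2 difference was -0.35 (SE 0.056; limma adjusted p = 0.0511; 0.000780 in the authors' deposited table). Its adjusted p over 14 analysis settings ran from 0.0377 to 0.275, under 0.05 with upper-quartile scaling, without a filter, without globin genes and without knockout 3. At 1222 to 1817 reads per library, counting error alone can be up to 2.86% of the value, and the SD of the controls is below that. Eng (ENSMUSG00000026814), the coreceptor endoglin for BMP signals, was at 100.4, 83.5 and 87.5 TPM in the controls and 63.6, 69.7 and 63.1 TPM in the knockouts. Every knockout lay below every control (log2 difference -0.46, SE 0.086; limma adjusted p = 0.0799; 0.000589 in the authors' deposited table; 0.0384 by limma-voom). Over the 14 settings the adjusted p of Eng ran from 0.0384 to 0.234.

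Adgrl4 (ENSMUSG00000039167), an adhesion receptor coupled to G proteins, was at 10.3, 8.28 and 10.9 TPM in the controls and 5.68, 5.72 and 7.41 TPM in the knockouts. It was the member furthest below the controls, again without overlap (log2 difference -0.57, SE 0.16; limma adjusted p = 0.221; 0.00743 in the authors' deposited table). Ramp2, which lets the calcitonin-receptor-like receptor bind adrenomedullin, was at 61.5, 56.5 and 56.3 TPM in the controls and 41.4, 55.1 and 48.2 TPM in the knockouts. The gap between control 3 and knockout 2 was small (log2 difference -0.27, SE 0.11; limma adjusted p = 0.389). S1pr1, the receptor of sphingosine 1-phosphate, the cell surface gene Ecscr and the membrane protein gene Myct1 had log2 differences of -0.18, 0.07 and -0.0012, all with overlapping groups. Myct1 was the steadiest of these, between 10.8 and 11.7 TPM in all 6 libraries.

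Transcription factor genes were split. Erg, an ETS factor that maintains endothelial identity, was at 14.4, 14.3 and 16.1 TPM in the controls and 10.7, 13.6 and 11.2 TPM in the knockouts, without overlap. Its log2 difference was -0.31 (SE 0.13; limma adjusted p = 0.405). The related Fli1, which blood cells also express, averaged 40.1 ± 4.16 TPM in the controls and 34.7 ± 2.04 TPM in the knockouts (log2 difference -0.20). Of the SOXF genes, Sox17 (ENSMUSG00000025902), the arterial one, was at 9.74, 9.56 and 11.7 TPM in the controls and 7.93, 7.39 and 6.55 TPM in the knockouts. All 3 knockouts lay below the controls (log2 difference -0.45, SE 0.14; limma adjusted p = 0.262; 0.0631 in the authors' deposited table). Sox7 averaged 18.3 ± 2.09 against 18.8 ± 1.64 TPM in the knockouts and Sox18 42.8 ± 4.63 against 44.9 ± 9.14 TPM, with intervals of -0.23 to 0.31 and -0.29 to 0.40 for the log2 difference. Both intervals span 0, and a difference between the 3 genes was not tested.

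Among the other arterial genes the groups overlapped. The connexin gene Gja4 was at 18.7, 12.9 and 19.2 TPM in the controls and 17.7, 23.8 and 18.3 TPM in the knockouts, with control 2 lowest and knockout 2 highest. Its log2 difference was 0.23 (95% interval -0.17 to 0.63). The connexin gene Gja5 was at 5.65, 3.83 and 3.25 TPM in the controls and 2.71, 4.44 and 5.69 TPM in the knockouts, each group spread over most of the range of both. The Notch ligand gene Dll4 was at 10.2, 9.55 and 8.06 TPM in the controls and 6.86, 9.86 and 8.77 TPM in the knockouts. Its difference of -0.12 (95% interval -0.50 to 0.25) and that of Nos3, the endothelial nitric oxide synthase gene, -0.23 (95% interval -0.60 to 0.14), leave room for changes in either direction. The 5 arterial genes had a median log2 difference of -0.12 and a summed level of 43.1 to 53.8 TPM in the controls and 43.0 to 52.7 TPM in the knockouts. Rasip1, which acts inside the cell in lumen formation and is counted as pan-endothelial, had a difference of -0.18.

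Tip-cell genes went in different directions. Esm1 (ENSMUSG00000042379), the secreted proteoglycan endocan and a marker of tip cells, was at 3.82, 3.46 and 3.45 TPM in the controls and 5.44, 7.27 and 5.58 TPM in the knockouts. Every knockout lay above every control, by 70.4% in the means (log2 difference 0.62, SE 0.17, 95% interval 0.24 to 1.00; limma adjusted p = 0.192; 0.153 in the authors' deposited table). These values rest on 58 to 128 reads per library, for which counting error is up to 13.1%. Apln, the apelin ligand made at sprouts, was at 11.9, 10.1 and 7.96 TPM in the controls and 9.39, 10.6 and 8.30 TPM in the knockouts. Angpt2, the angiopoietin that loosens vessels for remodelling, was at 4.21, 4.20 and 3.61 TPM in the controls and 4.36, 3.87 and 3.91 TPM in the knockouts. Neither separated the groups, with log2 differences of -0.06 (95% interval -0.45 to 0.32) and 0.01 (95% interval -0.35 to 0.37).

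Further secreted products of endothelium were Mmrn2 and Egfl7. Mmrn2, a matrix protein that binds Clec14a, was at 19.7, 20.2 and 18.2 TPM in the controls and 13.0, 16.8 and 16.6 TPM in the knockouts, without overlap (log2 difference -0.31, SE 0.12; limma adjusted p = 0.397). Egfl7, a secreted factor of the vessel wall, was at 51.7, 48.1 and 41.8 TPM in the controls and 43.6, 47.5 and 44.1 TPM in the knockouts, all knockouts inside the control range (log2 difference -0.06, 95% interval -0.27 to 0.15).

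Prox1 and Lyve1, the other lymphatic genes, had few reads. Prox1, the transcription factor of lymphatic fate, which liver and nerve cells also express, was at 2.08, 1.13 and 1.31 TPM in the controls and 1.57, 0.866 and 0.484 TPM in the knockouts. The groups overlapped, on 34 to 170 reads (log2 difference -0.36, 95% interval -0.99 to 0.27). Lyve1, a hyaluronan receptor of lymphatic cells and some macrophages, was at 5.56, 7.38 and 5.55 TPM in the controls and 5.96, 8.00 and 11.0 TPM in the knockouts. Only knockouts 2 and 3 exceeded the control range (log2 difference 0.35, 95% interval -0.15 to 0.85).

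**Figure D4:**
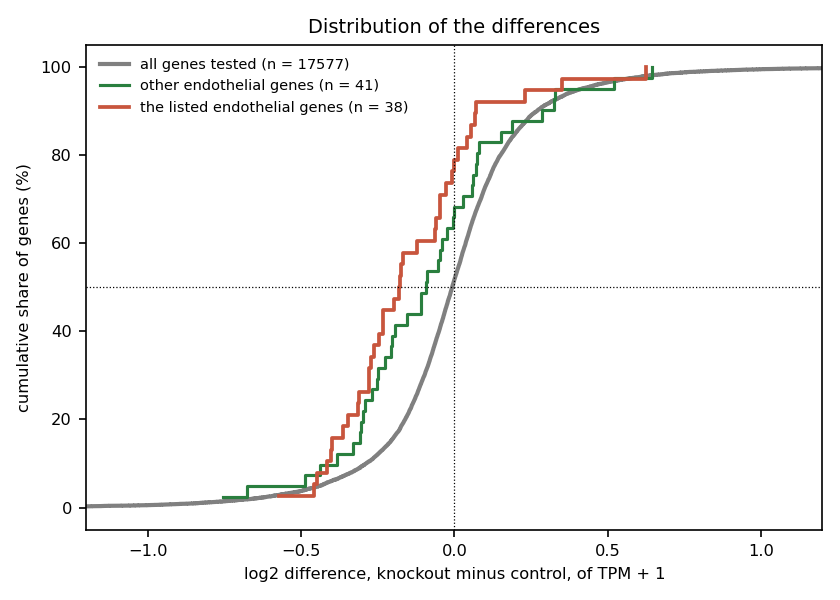
Cumulative share of genes (percent) by log2 difference of knockout minus control on the log2(TPM + 1) scale, for all 17577 genes tested, 41 other endothelial genes and the 38 listed endothelial genes; the axis is limited to -1.2 to 1.2. The curve of the 38 genes lies to the left of that of all genes over most of its length, with a median of -0.18 against -0.0075, and the other endothelial genes lie between, at -0.09.

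A further list of 41 tested endothelial genes outside the set had a median log2 difference of -0.09, with 28 below 0. Its summed level was 840, 807 and 843 TPM in controls 1 to 3 and 753, 782 and 810 TPM in knockouts 1 to 3. These sums overlapped, because knockout 3 exceeded control 2, and the difference of their means was -5.84%. Ldb2, the gene of highest level, was at 153 TPM in control 2 and 164 TPM in knockout 3. The sums without it were not computed. For 14 of the 41 genes every knockout value lay below every control value (8.49% of all genes), and for 4 every knockout value lay above (8.14%). None of the 41 genes passed limma. At an unadjusted p under 0.05, 10 were lower and 3 were higher (5.92% and 5.35% of all genes). Ldb2 and Ets1, those of highest level, averaged 146 and 92.5 TPM in the controls and 149.8 and 77.5 TPM in the knockouts. Of these genes, 5 have in the authors' deposited table an adjusted p under 0.05, named here after their values were seen: Tmem204, Stab2 and Tspan18 lower, and Foxc2 and Vcam1 higher (2.17% of all genes in that table are lower and 1.38% higher). Tmem204 averaged 24.3 ± 3.42 TPM in the controls and 13.9 ± 1.32 TPM in the knockouts and Stab2, a scavenger receptor of sinusoids, 5.81 ± 0.378 and 3.25 ± 0.0672 TPM. Of 4 tested venous genes none passed limma (0 with an unadjusted p under 0.05; 0 called by the authors' deposited table), with log2 differences of -0.08 for Nr2f2 and -0.22 for Ephb4.

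Genes of the signals that act on these receptors were taken from fixed lists. Beside the counts of each list, here and below, stand the shares over all genes. These are 5.92% lower and 5.35% higher at an unadjusted p under 0.05, and 0.313% lower and 0.131% higher past limma. In the authors' deposited table they are 2.17% lower and 1.38% higher. Of 13 tested VEGF and angiopoietin ligands and co-receptors, none passed limma (3 lower and 0 higher with an unadjusted p under 0.05; 2 lower and 1 higher called by the authors' deposited table). Vegfa, the ligand of Kdr and Flt1, was at 172, 189 and 175 TPM in the controls and 182, 183 and 175 TPM in the knockouts. The groups overlapped, and the interval of its log2 difference, -0.12 to 0.15, was narrow. Vegfb averaged 79.9 and 85.4 TPM. The 3 lower genes were Nrp1, a co-receptor of VEGF-A that other tissues also express, at 35.4 ± 3.83 TPM in the controls and 24.7 ± 2.54 TPM in the knockouts, Svep1 and Angpt1, the ligand that activates Tek; they were chosen after their values were seen. The gene higher in the authors' deposited table was Ccbe1, which helps to process VEGF-C, at 8.04 ± 1.70 and 11.5 ± 2.72 TPM with overlapping groups. Angpt1 averaged 16.7 ± 0.813 and 13.4 ± 1.93 TPM, without overlap (limma adjusted p = 0.421).

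Of 12 tested Notch and arterial pathway genes, Jag1 alone passed limma, lower (38.1 ± 3.22 against 57.0 ± 2.16 TPM in controls; adjusted p = 0.0325), a gene that the duct and tubules also express. The list median was -0.07, with 3 lower and 1 higher at an unadjusted p under 0.05, and 2 lower (Jag1 and Notch1) and 1 higher (Hey1) by the authors' deposited table. Notch1, a receptor, averaged 10.1 ± 1.67 TPM in control libraries and 6.66 ± 0.615 TPM in knockout libraries, and Hey1, a Notch target, 16.4 and 23.5 TPM (limma adjusted p = 0.244 and 0.176). Of 8 genes in the adrenomedullin, apelin and sphingosine phosphate pathways none passed limma (0 lower and 2 higher with an unadjusted p under 0.05; 1 higher called by the authors' deposited table). Their median was 0.19. Adm, the adrenomedullin gene and thus the ligand of the Ramp2 complex, averaged 1.68 ± 0.847 and 3.53 ± 0.305 TPM, without overlap (limma adjusted p = 0.273). Ackr3, a scavenger receptor of adrenomedullin and chemokines, averaged 41.8 ± 0.596 and 58.6 ± 11.2 TPM and Sphk2, a sphingosine kinase gene, 34.9 and 35.8 TPM. None of 11 tested endoglin partners and Smad targets passed limma (1 lower and 3 higher with an unadjusted p under 0.05; 0 called by the authors' deposited table). The Smad targets Id3 and Id2 averaged 429 and 236 TPM in the controls and 496 and 259.8 TPM in the knockouts. Smad5, the 1 lower gene at an unadjusted p under 0.05, averaged 249 ± 19.3 and 208 ± 28.3 TPM with overlapping groups (limma adjusted p = 0.377). Of the 11 genes, 7 had a log2 difference above 0 and 4 below. Acvrl1, the kinase that works with endoglin, averaged 14.8 ± 1.39 and 15.7 ± 2.54 TPM. The 95% intervals of the log2 difference were -0.65 to -0.26 for Eng and -0.24 to 0.39 for Acvrl1; the difference between these genes was not tested.

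Markers of other cells differed between the groups as well. The 12 gonadal soma markers summed to 164 to 172 TPM in the controls and 321, 280 and 195 TPM in knockouts 1 to 3. Of these, 6 passed limma, all higher, among them Kctd14, Cbln1, Inhbb and Nr5a1 (log2 differences 2.29, 2.26, 1.41 and 1.62). At an unadjusted p under 0.05, 8 were higher and 1 lower; this was Wnt6, at 62.8 ± 7.55 and 35.8 ± 12.7 TPM (limma adjusted p = 0.261), and Sox9 and Cyp26b1 also lay below 0. Pericyte markers summed to 451 to 509 TPM in the controls and 399 to 415 TPM in the knockouts; of 10 tested, Pdgfrb alone passed limma, lower (151 against 229 TPM), and the list median was 0.03. Without Pdgfrb, left out after its value was seen, the pericyte sums overlapped (239 to 267 and 248 to 260.3 TPM). Erythroid markers overlapped, at 13343 to 17678 TPM in the controls and 16629 to 18556 TPM in the knockouts, with Hbb-y and Hba-a1 highest. Macrophage markers overlapped too (190 to 275 and 195 to 231 TPM; C1qb and C1qa highest), while the summed level of the platelet markers was higher in each knockout (62.2 to 74.2 and 80.3 to 103 TPM). Pf4, the highest of them, averaged 27.6 ± 4.18 and 43.6 ± 5.57 TPM, whereas the next, Ppbp, overlapped and Gp5 and Itgb3 lay below 0. None of the erythroid, macrophage and platelet genes passed limma (of 15, 13 and 8 tested, 3, 0 and 3 were higher and 0, 1 and 0 lower at an unadjusted p under 0.05). The authors' deposited table calls 1 erythroid gene, Ermap, and 1 platelet gene, Pf4, higher and no macrophage gene. Some megakaryocytes and other blood cells also express Fli1, Cd34, Tek and Esam.

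Germ cell markers summed to 24.9 to 69.4 TPM in the controls and 30.8 to 87.7 TPM in the knockouts, none of 8 passing limma (0 at an unadjusted p under 0.05), with Dppa5a and Dppa3 highest. Mesonephric epithelium markers summed to 880 to 921 TPM in the controls and 755 to 833 TPM in the knockouts. These sums did not overlap either, and the difference of their means was -12.3%, beside -12.1% for the endothelial genes. None of the 10 passed limma (2 lower at an unadjusted p under 0.05), with Krt18 and Krt8 highest. Krt18 is called lower in the authors' deposited table (adjusted p = 0.0231). Of 11 mesenchyme markers, Tcf21 passed limma, higher, and the sums overlapped (3219 to 3502 and 3012 to 3453 TPM). At an unadjusted p under 0.05, 4 of them were higher and 1 lower. The authors' deposited table calls 3 higher (Tcf21, Foxd1 and Tbx18) and 1 lower (Col3a1). No marker of these lists was at 0 in any library, gonadal and germ cell markers included. With globin genes left out and the rest rescaled, the median log2 difference of the endothelial genes was -0.18, as before. Globin genes averaged 15427.1 TPM in the controls and 17161.5 TPM in the knockouts, beside 998612 and 998535 TPM for all genes tested. The rescaling could therefore move a log2 difference only slightly, and it does not test the part of blood cells. The part of the gonadal, pericyte, platelet and epithelial markers in the endothelial differences was not tested.

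**Figure D5:**
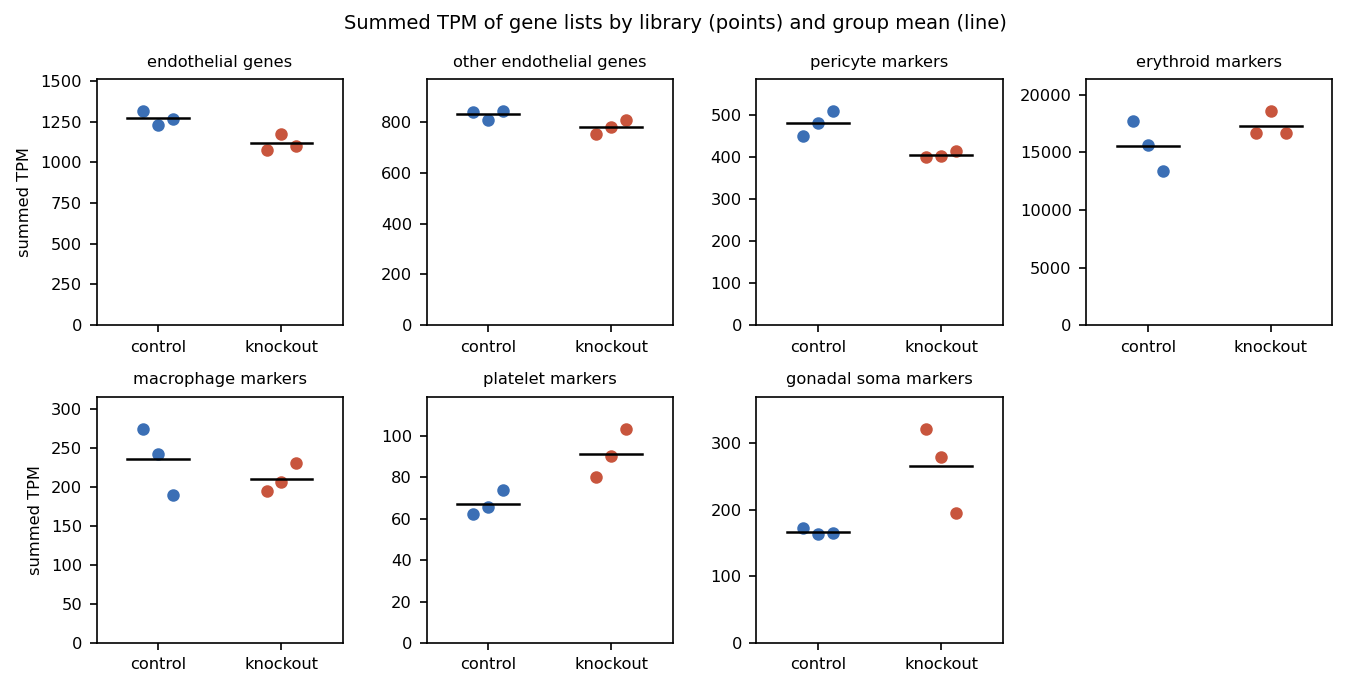
Summed TPM of the 38 endothelial genes, 41 other endothelial genes and the marker lists of pericytes, erythroid cells, macrophages, platelets and gonadal soma in each library (points), with the group mean (line); axes start at 0. The sums of the 38 endothelial genes and of the pericyte list, where Pdgfrb carries the difference, are lower in all 3 knockouts. Platelet and gonadal sums are higher, and the sums of the 41 other endothelial genes and of the erythroid and macrophage markers overlap.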

How the data were processed

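Total RNA of 6 male mesonephroi was enriched for poly(A) RNA and read from both ends, per the labels' protocols. GRCm39 and DESeq2 are named in the submitters' processing notes, and these sources do not state the aligner, the counting tool or the annotation. The authors deposited 1 TPM column per embryo, per the file headers, with their log2 fold change, p-value and adjusted p-value. Their values are quoted only as the authors' deposited table.

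Groups come from the sample titles. Differences were tested by limma 3.58.1 (R 4.3.3), two-sided, on log2(TPM + 1), with genotype as the only term and a trend of variance on level. The 17577 genes with 1 TPM or more in 3 or more libraries were tested. P-values were adjusted over these genes by Benjamini-Hochberg, with 0.05 as the threshold; intervals are unadjusted 95% intervals. The pseudocount shrinks the differences of low genes. Whole reads were recovered from the ratios of a gene's TPM between libraries, for 20030 of 20033 genes within 0.02 reads. A factor common to all 6 libraries is lost, so read numbers are lower bounds, and counting errors computed from them are upper bounds. Of these steps, only the limma fit on log2(TPM + 1) was run on simulated reads, with planted changes larger than the median difference of the members. Read recovery and limma-voom were not tested on simulated reads. The alternatives were 2 scalings, no filter, a pseudocount of 0.1, removal of globin genes, the mouse number as a block, limma-voom on recovered reads and the omission of each library.

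The members, gene lists and motifs were chosen with earlier results of these data known. Given with all 6 values were members at an unadjusted p under 0.05 and a fixed set of pan-endothelial, arterial, tip-cell and lymphatic genes; from each list, genes past the test (at most 4) or the 2 of highest level were named. Ccbe1, Adm, Notch1, Hey1, Smad5, Wnt6, Sox9, Cyp26b1, Ermap, Gp5, Itgb3, Foxd1, Tbx18 and Col3a1 were named after their values were seen.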

Additional observations from a re-analysis of the deposited data

How the results depend on the processing

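Over 38 endothelial genes and 13 alternatives to the reported fit, 461 of 494 log2 differences kept their sign and their side of the threshold, 7 came under an adjusted p of 0.05 and 26 changed sign. Those 7 belong to Aplnr, Kdr and Eng. Endothelial genes called numbered 0 in the reported fit, 1 with upper-quartile scaling, 1 without a filter and 1 without globin genes (Aplnr each time), 2 with limma-voom (Eng and Kdr) and 0 to 2 over the omissions of 1 library, the 2 being Aplnr and Kdr without knockout 3. The median log2 difference of the endothelial genes kept its sign in all alternatives, from -0.21 without knockout 2 to -0.13 without knockout 1. Genes called over the whole table numbered 78 in the reported fit, 279 with limma-voom and 13 to 242 over the omissions (242 without knockout 3). With the replicate block (mouse number as a term), 17 genes and 0 endothelial genes were called; same-numbered libraries had correlations of their deviations of -0.064, 0.050 and -0.051, so the numbers were not taken to pair the samples.

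Sign changes concerned 13 genes near 0. Myct1 was at 0.0070 with median-ratio scaling, 0.0011 without globin genes and 0.018 with limma-voom. Over the omissions of 1 library, log2 differences ran from -0.030 to 0.018 for Myct1, -0.12 to 0.083 for Emcn, -0.14 to 0.0072 for Egfl7, -0.17 to 0.12 for Plvap and -0.025 to 0.13 for Sox7. They ran from -0.077 to 0.22 for Sox18, -0.053 to 0.18 for Ecscr, -0.20 to 0.23 for Gja5, -0.23 to 0.0082 for Dll4, -0.20 to 0.059 for Apln, -0.045 to 0.043 for Angpt2, -0.081 to 0.030 for Cd34 and -0.050 to 0.23 for Icam2. Without a change of sign, leaving out 1 library moved the difference of 13 other genes by over 1.5 times. Their values nearest 0 were, without knockout 1, -0.20 for Mmrn2, -0.17 for Ramp2, -0.15 for Tek and -0.087 for Esam; without knockout 2, -0.15 for Pecam1; and without knockout 3, -0.095 for Cldn5, -0.13 for Nos3, -0.18 for Prox1 and 0.15 for Lyve1. They were, without control 1, -0.27 for Clec14a and -0.072 for S1pr1, without control 2, 0.055 for Gja4 and, without control 3, -0.11 for Rasip1. Those furthest from 0 were -0.57 for Prox1 and 0.54 for Lyve1 without knockout 1, -0.41 for Tek without knockout 3, -0.30 for Rasip1 without knockout 2 and -0.30 for S1pr1 without control 3. Prox1 was at -0.67 with a pseudocount of 0.1 and -0.72 with limma-voom. The cause of these shifts was not tested. Depth limits Prox1, Esm1, Lyve1 and Angpt2 most, with counting errors of up to 17.1%, 13.1%, 12.4% and 9.67%.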
